A study of Mus musculus with 18 samples.

Results

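The 7 genes Gad1, Gad2, Slc32a1, Pvalb, Calb1, Calb2 and Nos1, which mark or equip inhibitory neurons, were followed through 12 maps of the histone mark H3K27me3 in the embryonic mouse brain. They were chosen by name out of 21631 protein-coding genes, and an interval was counted for a gene when it overlapped the gene body or the 2.5 kb on either side. The mark was profiled by bulk CUT&Tag, in which an antibody steers a transposase to marked chromatin so that the DNA around it is cut out and sequenced. The tissue was the medial ganglionic eminence (MGE), the ventral forebrain zone that gives rise to many cortical and striatal interneurons. WT and KO embryos, the latter with Ezh2 deleted in Cre-expressing cells, were compared at both E12.5 and E15.5, with 3 libraries in each of the 4 groups. The other 6 samples of the 18 are heterozygous and were not analysed here.

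The parents were Nkx2.1-CreC/C;Ezh2F/+ males and Ai9F/F;Ezh2F/+ females, so that by the cross every embryo, WT included, carried the Cre and the Ai9 reporter. The KO titles name Nkx2.1-CreC/+ and Ai9F/+. Cre was driven from Nkx2.1, a regulator of the MGE, so recombination is limited to cells with a history of its expression. The whole MGE was taken at E12.5, whereas at E15.5 Tom+ MGE was dissected under fluorescence, so stage and dissection cannot be told apart. Tissue of embryos of the same genotype was combined when applicable, and the labels call the libraries biological replicates. In bulk tissue, fewer nuclei carrying the mark and less mark per nucleus cannot be told apart.

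The lists held 5008 to 13289 intervals per library. A depth for each library, the mean count per 200 bp window, was recovered from the deposited scores and spanned 0.0751 to 0.698. At E12.5 the WT depths were 0.117, 0.698 and 0.481 and the KO depths 0.212, 0.272 and 0.243. At E15.5 they were 0.0751, 0.129 and 0.150 in WT and 0.179, 0.216 and 0.346 in KO. Ezh2 had an interval in 0 of 12 libraries, so the lists give no check of the deletion. As a tissue check, 5 of 6 regulators of the MGE and 6 of 6 regulators of the dorsal pallium carried an interval in all 12 libraries. This held for 0 of 6 housekeeping genes, of which 5 had an interval in none and the other in 7 libraries. Of 5 microglia and vessel genes, 2 had an interval in all 12 libraries and 3 in none. Because a silencing mark is read, these markers do not identify the cells.

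H3K27me3 is placed by Polycomb repressive complex PRC2, of which Ezh2 is a catalytic subunit, and broad domains of it cover developmental genes that are kept silent. CG-rich start sites are its usual landing places in vertebrate genomes. Gad1 and Gad2 encode the enzymes that make GABA from glutamate, and Slc32a1 encodes the transporter that loads GABA into synaptic vesicles. Pvalb, Calb1 and Calb2 encode the calcium-binding proteins parvalbumin, calbindin and calretinin, and Nos1 encodes neuronal nitric oxide synthase. The latter 4 mark subsets of interneurons, and parvalbumin appears only late in their maturation.

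The mark was regular on 4 of the 7 genes and irregular or nearly absent from the lists on the other 3. Gad1, Gad2, Slc32a1 and Pvalb had an interval in all 12 libraries, as had 11.6% of protein-coding genes. Calb2 had one in 8 libraries, and Calb1 and Nos1 in 1 library each, whereas 38.7% of genes had one in at least 1 library. By group, 5 of the 7 had an interval in every E12.5 WT library and in every E12.5 KO library, beside 17.1% and 16.7% of genes. The number was 4 of 7 in every E15.5 WT library and 4 of 7 in every E15.5 KO library, beside 13% and 16.1% of genes.

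The sequences in front of the start sites are shown because the mark sat on the starts of the genes it marked throughout. The 250 bases before each start are from RefSeq, assembly GRCm38.p6, on the strand of the gene, with each CG dinucleotide in capitals. Intervals covered the annotated starts of Gad1, Gad2 and Slc32a1 in 12 of 12 libraries. Gad1 has its start at position 70562129 of chromosome 2, and the bases shown are chr2:70561879-70562128 (plus strand), with 17 CG dinucleotides. Gad2 is shown at chr2:22622077-22622326 (plus strand), with 13, and Slc32a1 at chr2:158610508-158610757 (plus strand), with 12. These starts lie 0.826 kb (Gad1), 1.31 kb (Gad2) and 3.50 kb (Slc32a1) inside the gene bodies used here. The bases shown for these genes thus lie within the gene body, not upstream of it.
Gad1: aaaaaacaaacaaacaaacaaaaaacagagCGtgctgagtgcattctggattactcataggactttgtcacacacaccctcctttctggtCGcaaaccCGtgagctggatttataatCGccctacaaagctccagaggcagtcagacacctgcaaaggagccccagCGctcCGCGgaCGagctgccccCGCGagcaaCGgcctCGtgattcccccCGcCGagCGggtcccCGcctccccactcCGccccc
Gad2: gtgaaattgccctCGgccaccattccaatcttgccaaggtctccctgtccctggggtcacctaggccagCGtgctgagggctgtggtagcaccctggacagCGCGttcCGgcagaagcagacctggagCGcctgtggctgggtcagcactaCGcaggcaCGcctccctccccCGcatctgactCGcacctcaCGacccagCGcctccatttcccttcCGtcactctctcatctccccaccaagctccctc
Slc32a1: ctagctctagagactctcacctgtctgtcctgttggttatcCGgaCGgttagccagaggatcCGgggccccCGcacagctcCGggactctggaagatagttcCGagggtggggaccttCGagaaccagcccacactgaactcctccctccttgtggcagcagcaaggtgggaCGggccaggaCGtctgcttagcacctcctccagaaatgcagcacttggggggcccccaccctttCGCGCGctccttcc

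Pvalb has 2 annotated starts on the minus strand of chromosome 15, of which the inner one lay under an interval in every library. The outer start, at 78206400, is preceded by chr15:78206401-78206650 with 4 CG dinucleotides, and an interval covered it in 7 of 12 libraries: 2 of 3 WT and 0 of 3 KO at E12.5, and 2 of 3 WT and 3 of 3 KO at E15.5. The inner start, at 78204237 within the gene body, is preceded by chr15:78204238-78204487 with 23 CG dinucleotides and was covered in 12 of 12. Nos1, whose start at 117866839 of chromosome 5 was covered in 0 of 12 libraries, is shown for contrast at chr5:117866589-117866838 (plus strand), with 6.
Pvalb outer start: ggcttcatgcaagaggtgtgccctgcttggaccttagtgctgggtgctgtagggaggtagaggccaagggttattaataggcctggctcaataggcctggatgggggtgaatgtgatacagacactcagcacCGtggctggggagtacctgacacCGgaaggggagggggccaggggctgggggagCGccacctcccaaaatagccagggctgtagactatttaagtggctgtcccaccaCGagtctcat
Pvalb inner start: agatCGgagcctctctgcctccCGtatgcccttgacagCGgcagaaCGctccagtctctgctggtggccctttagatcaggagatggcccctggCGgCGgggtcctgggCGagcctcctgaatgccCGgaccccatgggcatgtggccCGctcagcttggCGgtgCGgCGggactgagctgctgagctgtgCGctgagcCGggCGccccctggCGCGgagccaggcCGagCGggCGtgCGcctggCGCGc
Nos1: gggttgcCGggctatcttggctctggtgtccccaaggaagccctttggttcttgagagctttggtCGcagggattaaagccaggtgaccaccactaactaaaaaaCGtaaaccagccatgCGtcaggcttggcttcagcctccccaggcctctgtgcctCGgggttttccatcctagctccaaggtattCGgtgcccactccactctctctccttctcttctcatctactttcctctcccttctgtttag

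Over the 300 bases from 250 before to 50 after a start, Gad1 had 21 CG dinucleotides, Slc32a1 17, Gad2 14 and the inner Pvalb start 25. The outer Pvalb start had 5 and Nos1 6. The search was for the letters CG, which read the same on both strands. Of 20085 autosomal starts, 34.8% held at least as many as Gad1, 43.9% as Slc32a1 and 50.2% as Gad2. The share was 25.7% for the inner Pvalb start, 72.5% for the outer one and 68.6% for Nos1. The median of these autosomal starts was 14. The 6.98% covered in all 12 libraries had a median of 20, and the 71.8% covered in none had a median of 9. Gad2, with 14 CG dinucleotides, thus lay at the median of all starts. Calb1 and Calb2 are named only.

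**Figure D1:**
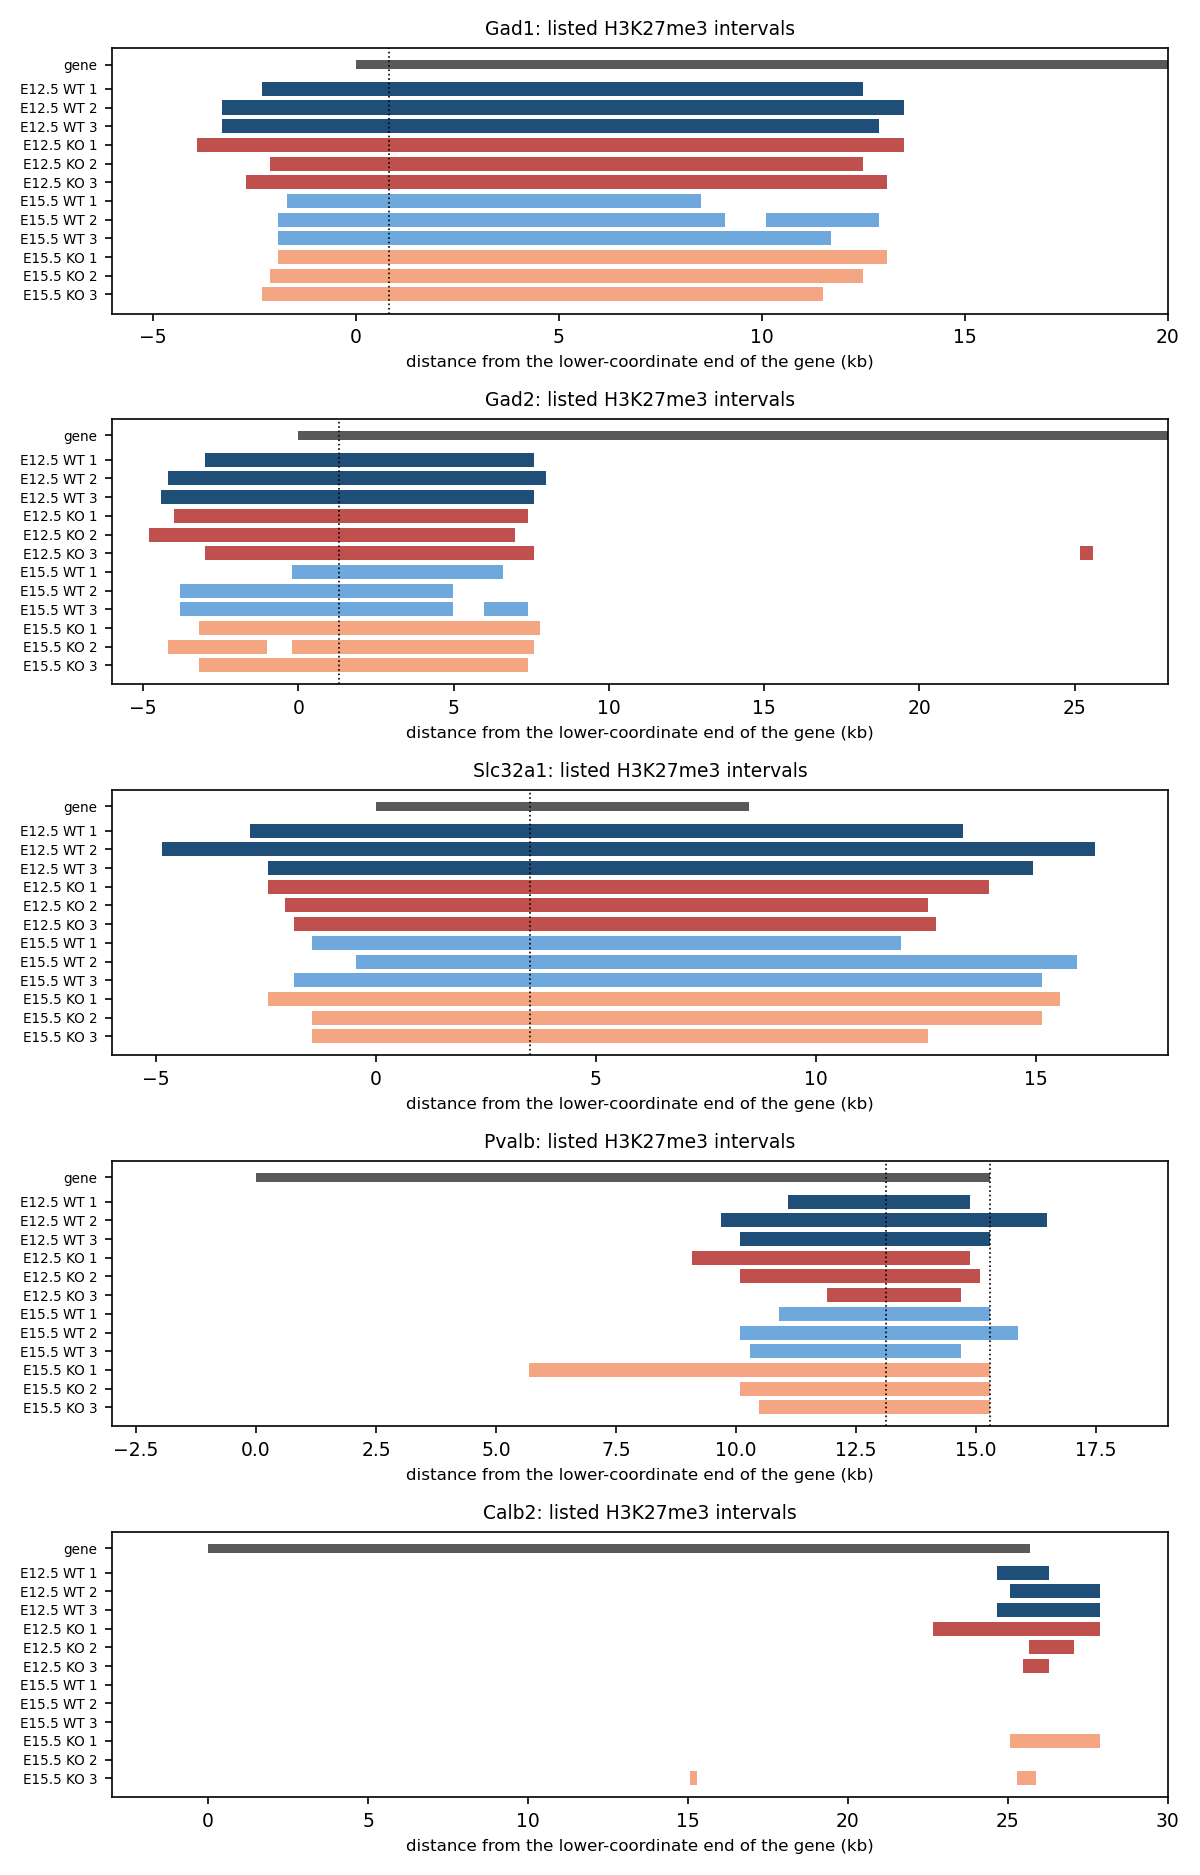
Intervals of each library at Gad1, Gad2, Slc32a1, Pvalb and Calb2, drawn as bars against the distance in kb from the lower-coordinate end of the gene (grey bar, cut at the plot's edge for Gad1 and Gad2), 1 row per library, with dotted lines at the annotated starts of all but Calb2. Gad1, Gad2, Slc32a1 and Pvalb are marked in all 12 rows and Calb2 in 8.

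At Gad1 (chr2:70561303-70602014, 40.7 kb) the mark was a broad domain over the 5′ part of the gene. It covered 14.6 to 16.0 kb of the window at E12.5 and 10.2 to 15.0 kb at E15.5. In WT the raw counts were 792, 4381 and 3160 at E12.5 and 189, 365 and 473 at E15.5. In KO they were 1087, 1969 and 1989 at E12.5 and 541, 781 and 1231 at E15.5. With every library brought to the same mean depth, the counts at E12.5 became 1755, 1630.1 and 1709 in WT and 1331, 1879 and 2125 in KO. At E15.5 the depth-scaled counts were 654, 733 and 819.9 in WT and 787, 940.5 and 926 in KO. Within each genotype every E12.5 library lay above every E15.5 library, and the genotypes overlapped at both stages. Of genes with an interval in every library compared, 52% were wholly lower at E15.5 in WT and 12.4% in KO. Another 3.93% in WT and 11.4% in KO were wholly higher.

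At Gad2 (chr2:22621015-22693877, 72.9 kb) the main interval again sat on the 5′ end, covering with any further intervals 9.49 to 10.5 kb at E12.5 and 6.80 to 10.3 kb at E15.5. In WT the raw counts were 209, 1495 and 1027 at E12.5 and 60, 103 and 165 at E15.5. The KO libraries had 347, 595 and 730 at E12.5 and 197, 224 and 408 at E15.5. In WT the depth-scaled counts were 463, 556 and 555 at E12.5 and 208, 207 and 286 at E15.5. In KO they were 425, 568 and 779.9 at E12.5 and 287, 269.7 and 307 at E15.5. As at Gad1, the E12.5 libraries of each genotype lay above its E15.5 libraries and the genotypes overlapped. The shares of genes given for Gad1 apply here too. The merged region also touched Myo3a, so its counts are not Gad2's alone.

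Slc32a1 (chr2:158607260-158615747, 8.49 kb) was blanketed from end to end, with 95.2 to 100% of its 13.5 kb window covered at E12.5 and 84.9 to 99.7% at E15.5. In WT the raw counts were 821, 5088 and 3304 at E12.5 and 263, 469 and 692 at E15.5. The KO values were 1097, 2118 and 2112 at E12.5 and 809, 1187 and 1722 at E15.5. In WT the depth-scaled counts were 1819, 1893 and 1786 at E12.5 and 909.7, 942 and 1199.6 at E15.5. In KO they were 1343, 2021 and 2256 at E12.5 and 1177, 1429 and 1295 at E15.5. The WT stages did not overlap, whereas in KO the lowest E12.5 library, replicate 1, lay below the highest E15.5 library. Its intervals scored above 90.2 to 98.5% of the intervals of their own list.

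Pvalb (chr15:78191112-78206400, 15.3 kb, minus strand) carried a smaller interval of 2.80 to 9.60 kb. In WT the raw counts were 57, 417 and 260 at E12.5 and 23, 49 and 60 at E15.5. The KO libraries had 71, 85 and 106 at E12.5 and 80, 70 and 100 at E15.5. In WT the depth-scaled counts were 126, 155 and 141 at E12.5 and 79.6, 98.4 and 104 at E15.5. KO libraries had 87.0, 81.1 and 113 at E12.5 and 116, 84.3 and 75.2 at E15.5. The E12.5 WT libraries were above all the others, and the other 3 groups overlapped.

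Calb2 (chr8:110142526-110168212, 25.7 kb) had weak intervals, mainly at its high-coordinate end. At E12.5 the raw counts were 10, 67 and 43 in WT and 23, 11 and 15 in KO. At E15.5 only KO replicates 1 and 3 had any, with 17 and 20. The 3 E15.5 WT libraries and E15.5 KO replicate 2 had no interval. An interval in all 6 E12.5 libraries and in no E15.5 WT library was seen at 83 genes, 0.384% of all. Only the 3182 genes with an interval in all 6 E12.5 libraries could show it. The pattern was taken from the values of Calb2 itself, so its share is a description only. The E15.5 WT libraries were also the shallowest group. E12.5 WT replicate 1, at a depth of 0.117, had an interval, while E15.5 WT replicates 2 and 3, at 0.129 and 0.150, and E15.5 KO replicate 2, at 0.216, had none. Depth-scaled counts were 22.2, 24.9 and 23.2 in E12.5 WT and 28.2, 10.5 and 16.0 in E12.5 KO, so the genotypes overlapped.

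Calb1 (chr4:15881264-15906709, 25.4 kb) had a single interval, of 15 counts, over its lower end at chr4:15881001-15882200 in E12.5 WT replicate 3. Nos1 (chr5:117866839-117958840, 92.0 kb) had intervals only in E15.5 KO replicate 3, of 9 counts at chr5:117864401-117864800 and of 18 counts at chr5:117899801-117900200. Neither gene had an interval in more than 1 library, so no comparison was made. The score of the Calb1 interval exceeded 10.8% of the scores in its list and those of the Nos1 intervals 18.6% and 59.4%.

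**Figure D2:**
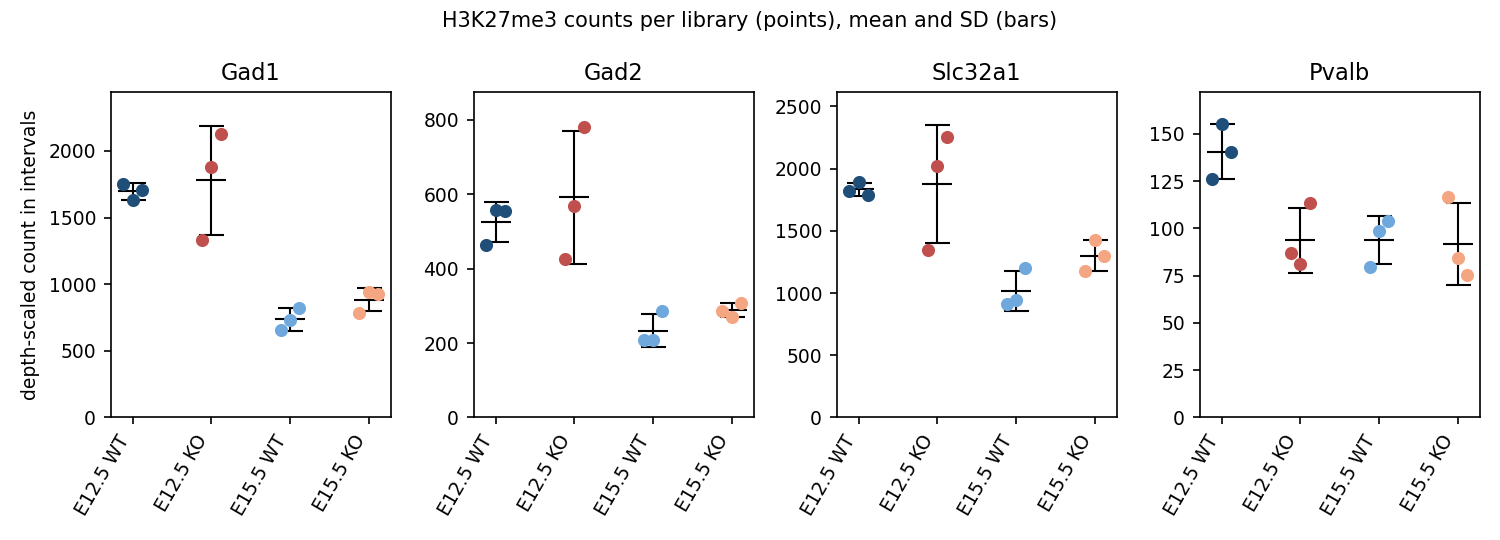
Depth-scaled counts of Gad1, Gad2, Slc32a1 and Pvalb by group, 1 point per library with bars for the mean and SD, on an axis of its own for each gene. At Gad1 and Gad2 the E12.5 points of each genotype lie above its E15.5 points, with E12.5 KO the most spread group. Such a separation was seen at 52% of genes in WT and 12.4% in KO.

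Per kb of interval, which allows genes to be compared but depends on the width called, the mark was densest at Gad1 and Slc32a1. In E12.5 WT the depth-scaled count per kb was 107 ± 10.9 (SD, n = 3) at Gad1, 101 ± 11.5 at Slc32a1, 45.2 ± 1.34 at Gad2, 27.7 ± 5.24 at Pvalb and 10.0 ± 3.43 at Calb2. Gad1 and Slc32a1 overlapped, and the ranges of the others did not overlap with theirs or with each other's. This order did not hold in every group. In E12.5 KO the highest Pvalb density, 40.4 from an interval of 2.80 kb, exceeded the lowest of Gad2, 37.3. The highest of Calb2 in that group, 20.03, exceeded the lowest of Pvalb, 15.0. In E15.5 WT the highest Pvalb density, 23.64, exceeded the lowest of Gad2, 23.52. In E15.5 KO the densities were 81.3 ± 14.2 at Slc32a1, 61.3 ± 7.77 at Gad1, 26.5 ± 2.25 at Gad2 and 14.7 ± 2.22 at Pvalb. There Slc32a1 and Gad1 overlapped as well. Calb2 had 8.84 and 18.8 in its 2 libraries and Nos1 25.4 in its single one.

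Whether the mark on these genes changes with stage was asked first in WT. Signal at Gad1, Gad2 and Slc32a1 fell from E12.5 to E15.5. The depth-scaled count of Gad1 went from 1698 ± 63.1 (SD, n = 3) to 736 ± 83.1, that of Gad2 from 525 ± 53.5 to 234 ± 45.5, and that of Slc32a1 from 1833 ± 54.7 to 1017 ± 159. On merged regions with edgeR's quasi-likelihood test, the log2 change at Gad1 was -1.20 (SE 0.13, adjusted p = 2.39e-05), a 2.30-fold lower signal. At Gad2 it was -1.16 (SE 0.21, edgeR adjusted p = 0.00104), 2.24-fold lower, and at Slc32a1 -0.84 (SE 0.14, edgeR adjusted p = 0.000599), 1.79-fold lower. Pvalb stood at -0.58 (SE 0.29, edgeR adjusted p = 0.116).

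These 3 calls out of 4 stood among 44% of the 2570 regions called lower and 3.81% called higher, and the median of all regions was -0.59. All 4 genes had groups that did not overlap, lower at E15.5, as had 52% of genes with an interval in every library compared, and 3.93% were wholly higher. Of all regions, 83.6% had a higher change than Gad1, 82.0% than Gad2, 65.6% than Slc32a1 and 49.2% than Pvalb. With TMM factors, which take most regions to be unchanged, the median was -0.09 and 22.2% of regions were called lower and 16.1% higher. Gad1, at -0.74 (edgeR adjusted p = 0.00303), and Gad2, at -0.68 (adjusted p = 0.00281), were still called, and Slc32a1, at -0.37 (adjusted p = 0.0529), was not. With so many regions called, 3 of 4 under depth scaling is not read as particular to these genes. The falls at Gad1 and Gad2 went beyond the general shift by 0.61 and 0.58 on the log2 scale.

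The stages also differed in depth, with E15.5 WT the shallowest. E12.5 WT replicate 1, at a depth of 0.117, lay close to E15.5 WT replicates 2 and 3, at 0.129 and 0.150. Its raw count at Gad1 was 792 against 365 and 473, and at Gad2 209 against 103 and 165. At Slc32a1 it was 821 against 469 and 692, and at Pvalb 57 against 49 and 60. The raw counts of Gad1, Gad2 and Slc32a1 were higher in this 1 E12.5 library, and that of Pvalb lay between the E15.5 values. Whether depth bears on the falls was not tested.

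**Figure D3:**
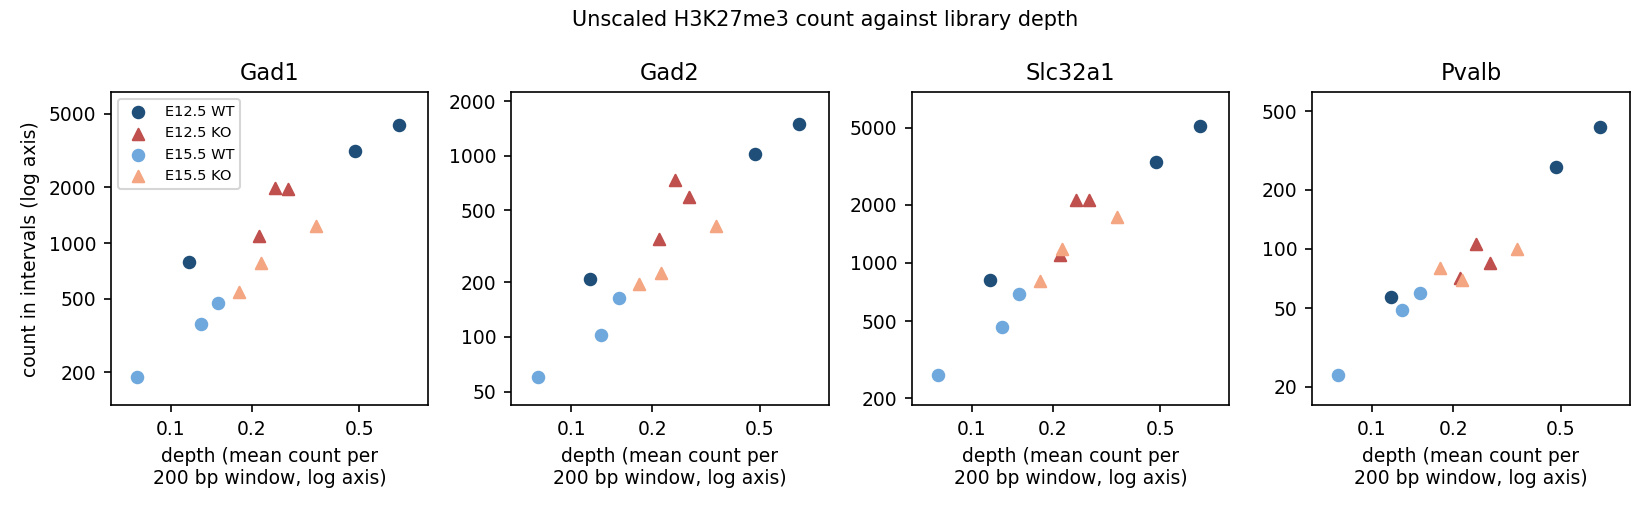
Raw counts at Gad1, Gad2, Slc32a1 and Pvalb against the recovered depth of the library (mean count per 200 bp window), both on log axes, 1 point per library. E12.5 WT replicate 1, with 792 counts at Gad1, lies above the E15.5 libraries of like depth, with 365 and 473.

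In KO, signal at Gad1 and Gad2 fell as well. Gad1 went from 1778 ± 406 (SD, n = 3) to 885 ± 84.5 depth-scaled counts, 2.01-fold lower (log2 change -1.01, SE 0.27, edgeR adjusted p = 0.00253). Gad2 went from 591 ± 179 to 288 ± 18.6, 2.05-fold lower (log2 change -1.03, SE 0.30, edgeR adjusted p = 0.00733). Slc32a1, at 1874 ± 474 and 1301 ± 126, had -0.53 (SE 0.26, edgeR adjusted p = 0.171), and Pvalb -0.04 (SE 0.36, adjusted p = 0.977).

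Here the background was small: 7.66% of 3145 regions were called lower and 6.2% higher, and the median was -0.07. Of all regions, 93.0% had a higher change than Gad1 and 93.3% than Gad2. The groups of both genes did not overlap, as was the case at 12.4% of genes in that direction and 11.4% in the other. With TMM factors 13% of regions were called lower and 12.9% higher, and Gad1 (-0.96, edgeR adjusted p = 0.000457), Gad2 (-0.97, adjusted p = 0.000133) and Slc32a1 (-0.49, adjusted p = 0.041) were all called. Single libraries mattered. Without E15.5 KO replicate 1 neither Gad1 (-0.93, edgeR adjusted p = 0.074) nor Gad2 (-1.03, adjusted p = 0.0875) passed. Gad2 also missed the threshold of the edgeR test when 1 library was left out, be it E12.5 KO replicate 2 (-1.06, adjusted p = 0.0504), E15.5 KO replicate 2 (-0.99, edgeR adjusted p = 0.136) or E15.5 KO replicate 3 (-1.08, adjusted p = 0.0741), and with counts taken over gene windows (-0.95, adjusted p = 0.0678). In each of these its change stayed near the -1.03 of all libraries. With each of the 6 libraries left out in turn, the change ran from -1.22 to -0.79 at Gad2 and from -1.18 to -0.86 at Gad1. Without E12.5 KO replicate 1, the lowest E12.5 KO library at Gad1, Gad2 and Slc32a1, the change at Slc32a1 was -0.73 (edgeR adjusted p = 0.00056).

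A ratio of raw counts between 2 genes of the same library needs no depth scaling. Counts cover called intervals only, so depth could still bear on the ratio, which was not tested. The ratio of Gad1 to Slc32a1, chosen after the values were seen and so given without a test, was 0.965, 0.861 and 0.956 at E12.5 in WT and 0.991, 0.930 and 0.942 in KO. At E15.5 it was 0.719, 0.778 and 0.684 in WT and 0.669, 0.658 and 0.715 in KO. Every E12.5 library was above every E15.5 library, and at each stage the genotypes overlapped. The ratio of Gad2 to Slc32a1 ran from 0.255 to 0.346 at E12.5 and from 0.189 to 0.244 at E15.5, again with no overlap. Of 2491 other autosomal genes with an interval in all 12 libraries, 1.36% had a ratio to Slc32a1 wholly lower at E15.5, Gad1 and Gad2 among them, and 16.1% one wholly higher. The ratio of Gad2 to Gad1 averaged 0.310 and 0.329 in WT and KO at E12.5 and 0.316 and 0.327 at E15.5. For Pvalb over Slc32a1 the mean was 0.0767 ± 0.0065 (SD, n = 3) in WT and 0.0517 ± 0.0124 in KO at E12.5, without overlap, as at 57.8% of those genes (0.522% were wholly higher in KO), and 0.0929 ± 0.0101 and 0.0720 ± 0.0233 at E15.5, with overlap. Counts at the pair of GABA-synthesis genes were thus lower relative to the transporter at E15.5 in both genotypes.

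**Figure D4:**
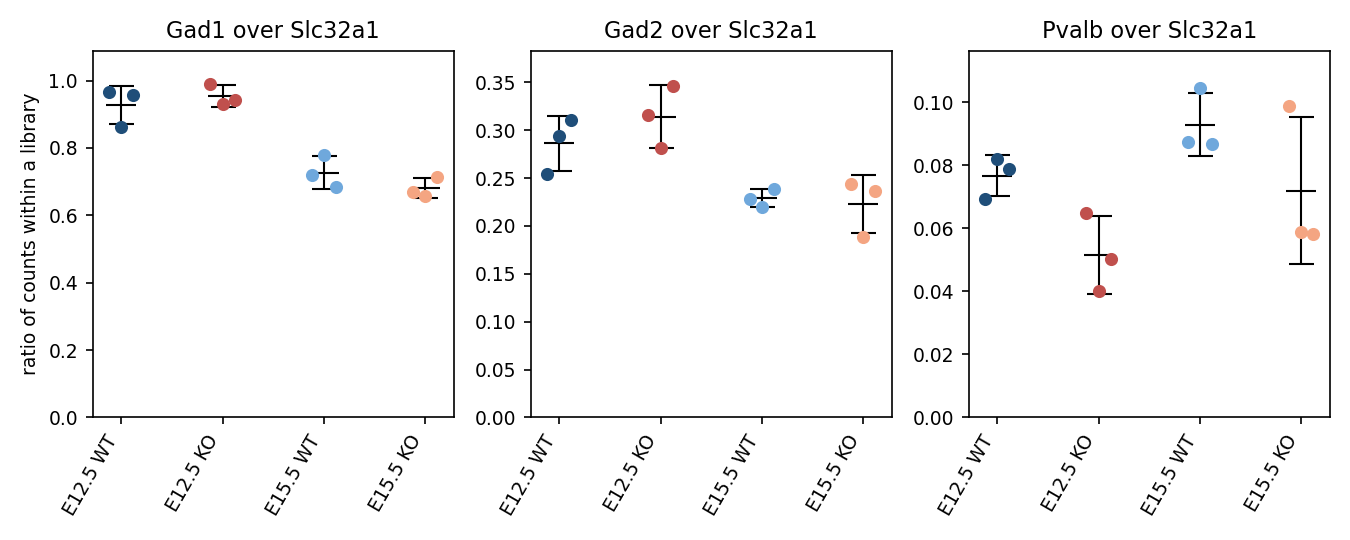
Ratios of raw counts of Gad1, Gad2 and Pvalb to Slc32a1 in the same library, by group, 1 point per library with bars for the mean and SD. For Gad1 over Slc32a1 the E12.5 points lie between 0.861 and 0.991 and the E15.5 points between 0.658 and 0.778.

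The effect of the Ezh2 deletion was asked at each stage. At E12.5 none of the 5 genes with a region in all 6 libraries was called by edgeR with depth scaling, and 0 of them had an unadjusted p under 0.05. The log2 change of KO against WT was 0.07 (SE 0.25, edgeR adjusted p = 0.835) at Gad1, 0.16 (SE 0.32, adjusted p = 0.681) at Gad2 and 0.04 (SE 0.25, adjusted p = 0.892) at Slc32a1. At Pvalb it was -0.59 (SE 0.41, edgeR adjusted p = 0.267) and at Calb2 -0.40 (SE 0.38, adjusted p = 0.407). Of the 3236 regions tested, 10.4% were called lower and 0.34% higher, and the median was -0.56. Gad1, Gad2 and Slc32a1 ranked high among all regions: 7.48%, 5.25% and 8.0% of regions had a higher change. The 3 Pvalb values in KO lay below the 3 in WT, as at 33% of genes with an interval in every library compared (0.35% had KO wholly above), and 53.4% of regions had a higher change than Pvalb.

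The call at E12.5 depended on the scaling. TMM factors move the median of all regions to -0.04, and the share of regions called to 4.45% lower and 2.97% higher. Gad2 was then higher in KO at 0.66 (edgeR adjusted p = 0.00711), while Gad1 stood at 0.56 and Slc32a1 at 0.54 (edgeR adjusted p = 0.0784 for each), Pvalb at -0.06 and Calb2 at 0.19. DESeq2 with its own size factors called Gad1 (0.61, adjusted p = 0.0361), Gad2 (0.72, adjusted p = 0.000454) and Slc32a1 (0.59, adjusted p = 0.0279) higher, among 4.57% of regions with an adjusted p called higher and 4.51% lower. With depth scaling, too, the 3 genes lay above the median of all regions, by 0.63 (Gad1), 0.72 (Gad2) and 0.60 (Slc32a1) on the log2 scale.

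At E15.5 the 4 genes with a region in all 6 libraries gave 0 calls by edgeR and 0 by DESeq2, and 2 of them, Gad1 and Slc32a1, had an unadjusted p under 0.05. Their log2 changes were 0.26 (SE 0.12, edgeR adjusted p = 0.303) at Gad1 and 0.35 (SE 0.13, edgeR adjusted p = 0.17) at Slc32a1. Gad2 had 0.29 (SE 0.16, edgeR adjusted p = 0.418) and Pvalb -0.06 (SE 0.26, adjusted p = 0.941). The share of all regions with an unadjusted p under 0.05 is not given here. That Gad1 and Slc32a1 passed this cut is thus not read as particular to these genes. Of all regions, 20.1% had a higher change than Gad1, 18.5% than Gad2, 14.6% than Slc32a1 and 56.9% than Pvalb. Of 2774 regions, 1.69% were called lower and 3.21% higher, with a median of -0.02. With TMM factors the shares were 3.03% and 4.11%, and none of the 4 was called; DESeq2 called 3.14% of regions lower and 4.04% higher. WT and KO overlapped at all 4 genes, while 8.09% of genes with an interval in every library compared had KO wholly below WT and 11.1% wholly above.

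With stage as a term over all 12 libraries, the genotype effect at Gad1 was 0.16 on the log2 scale (SE 0.16, edgeR adjusted p = 0.471), at Gad2 0.23 (SE 0.21, adjusted p = 0.445), at Slc32a1 0.19 (SE 0.15, adjusted p = 0.396) and at Pvalb -0.33 (SE 0.26, adjusted p = 0.384). None of the 4 was called, and 0 had an unadjusted p under 0.05. Of 2367 regions 5.87% were called lower and 0.845% higher, with a median of -0.29. With TMM factors, 4.9% were called lower and 4.77% higher, the median was -0.02, and the 3 GABA genes were called higher in KO. Gad1 then stood at 0.43 (edgeR adjusted p = 0.0135), Gad2 at 0.51 (adjusted p = 0.00361) and Slc32a1 at 0.45 (adjusted p = 0.00648), and Pvalb at -0.05 (adjusted p = 0.857). DESeq2 called the same 3, with adjusted p of 0.00748, 0.000203 and 0.000886, among 6.17% of regions called higher and 5.87% lower.

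The test of whether the KO effect differed between the stages called none of the 4 with edgeR or DESeq2, and 0 had an unadjusted p under 0.05 in edgeR. The difference, E15.5 effect minus E12.5 effect, was 0.20 (SE 0.29, edgeR adjusted p = 0.603) at Gad1, 0.13 (SE 0.36, adjusted p = 0.786) at Gad2, 0.29 (SE 0.28, adjusted p = 0.425) at Slc32a1 and 0.54 (SE 0.47, adjusted p = 0.383) at Pvalb. All 4 turned negative with TMM factors, at -0.32, -0.38, -0.23 and -0.03. Of 2367 regions 0% were called lower and 6.21% higher, with a median of 0.61, and with TMM factors 0.211% and 1.94%, with a median of 0.07. DESeq2 called 0.591% lower and 1.99% higher.

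**Figure D5:**
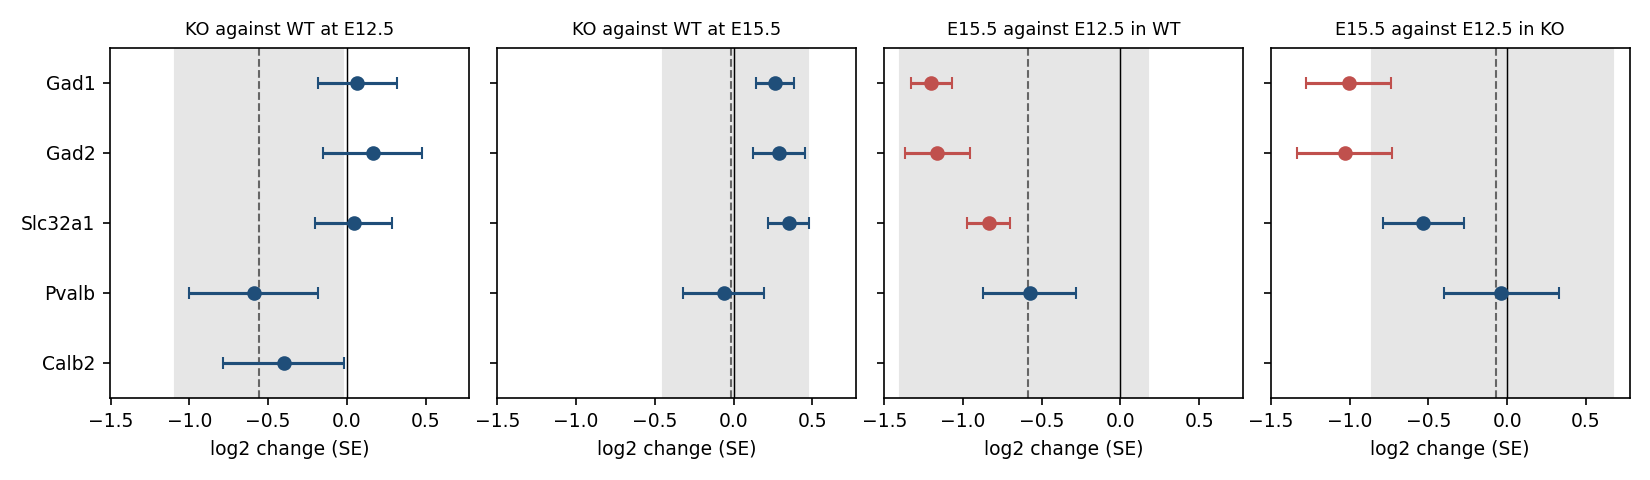
Log2 changes of the member regions in 4 comparisons (points, with SE bars) with depth scaling, red where the edgeR adjusted p was under 0.05; the dashed line is the median of all regions tested and the grey band runs from the 10th to the 90th percentile. In KO against WT at E12.5, Gad1, Gad2 and Slc32a1 lie near 0 with depth scaling while the median lies at -0.56.

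Other genes of the same chemistry were read from 3 lists. Of 14 genes for GABA metabolism and transport, chloride handling and nitric oxide signalling, 3 had an interval in all 12 libraries: Slc12a5, the chloride exporter of neurons, Nos2 and Nos3. Another 5 had none. With depth scaling edgeR called 0 of this list in each of the 6 comparisons, with at most 1 gene at an unadjusted p under 0.05. As the share of all regions passing that cut is not given here, nothing is read from this count. Between the stages DESeq2 called Slc12a5 and Nos3 higher at E15.5 in WT, and Nos3 higher at E15.5 in KO, as did edgeR with TMM factors. Of all regions, DESeq2 called 18.4% higher and 16.3% lower in WT, and 13.9% and 12.1% in KO. With TMM factors edgeR called 16.1% higher and 22.2% lower in WT, and 12.9% and 13% in KO.

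Of 14 other EF-hand calcium-binding genes, 4 had an interval in all 12 libraries and 5 in none. In WT, 4 of 6 tested were lower at E15.5, against 44% of all regions, with a median of -0.65 beside -0.59. They were Scgn, encoding secretagogin, at -1.0 (edgeR adjusted p = 0.0257), Hpca, encoding hippocalcin, at -0.71 (adjusted p = 0.0122), Ncald at -0.96 (adjusted p = 0.022) and Cabp1 at -0.58 (adjusted p = 0.0295). With TMM factors none of the 4 was called, with edgeR adjusted p from 0.134 to 0.585. Necab2 was called higher there, among 16.1% of regions called higher and 22.2% lower. In KO, edgeR with TMM factors and DESeq2 called Cabp1 lower and Cabp7 higher at E15.5. Of all regions, edgeR with TMM factors called 13% lower and 12.9% higher there, and DESeq2 12.1% and 13.9%.

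Of 17 genes for other transmitters, 7 had an interval in all 12 libraries and 6 in none. In WT, 3 of 7 tested were lower at E15.5, a share near the 44% of all regions. Chat and Slc18a3, the cholinergic pair, share 1 region, at -0.37 (edgeR adjusted p = 0.0221), and with TMM factors at 0.12 (adjusted p = 0.414). Slc6a3, the dopamine transporter, was at -1.88 (edgeR adjusted p = 0.00173), and in KO at -0.96 (adjusted p = 0.0457), and passed with TMM factors in both. Between the stages in WT, DESeq2 called Slc17a6 and Slc17a7, which load glutamate into vesicles, higher at E15.5, where it called 16.3% of regions lower and 18.4% higher. In KO, both edgeR with TMM factors and DESeq2 called Slc6a4, the serotonin transporter, higher, DESeq2 among 12.1% of regions lower and 13.9% higher. For KO against WT, 0 genes of the 3 lists were called at either stage or over both by edgeR with depth scaling. Up to 2 genes per list had an unadjusted p under 0.05. The share of all regions passing this cut is not given here, so nothing is read from that count. DESeq2 called Cabp1 higher in KO at E12.5, among 4.57% of regions called higher and 4.51% lower.

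Likeness between genes was measured as Pearson's r over the 12 libraries, among 2492 genes. It used log2 depth-scaled counts, with each interval counted in proportion to its part inside the gene window. The r is a description since the points share library and depth. Gad1 and Gad2 had 0.954, Gad1 and Slc32a1 0.929, and Gad2 and Slc32a1 0.925. Pvalb had 0.437, 0.469 and 0.196 with these 3. Outside the 7 genes, only genes on another chromosome than the member were considered. Of these, the nearest to Gad1 were Nab2 (0.988) and Prrx1 (0.975), and to Gad2 Fgf11 (0.961) and Nab2 (0.959). Those nearest to Slc32a1 were Dlx5 (0.929) and Dlx6 (0.921), both on chromosome 6, and to Pvalb Egfr (0.960) and Zfp648 (0.953). The median r over all genes compared was 0.374 for Gad1, 0.388 for Gad2, 0.283 for Slc32a1 and 0.602 for Pvalb.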

How the data were processed

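Each of the 12 WT and KO libraries has its own list of intervals from H3K27me3 CUT&Tag. The submitters' processing notes name cutadapt, Bowtie2, SAMtools, Picard, deepTools and SICER and the builds GRCm38 and mm10, and settings are not given in the sources used here. The count of each interval is the authors' deposited whole number, not normalized. The score was deposited by the authors too. In intervals of a single 200 bp window it follows the negative natural log of a Poisson probability, from which the depth per window was recovered; that this tracks total reads is an assumption. A count covers called intervals only, so an absent interval is not a count of 0.

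Depth-scaled counts are counts divided by the depth and multiplied by its mean, 0.260. Intervals were merged over libraries, and the counts of autosomal regions present in all libraries of a comparison were put through edgeR 4.0.16 in R 4.3.3 (quasi-likelihood test, library sizes proportional to depth, Benjamini-Hochberg adjustment over all regions, threshold 0.05). A gene's region is the merged region with the most bases in its window. Alternatives were TMM factors, DESeq2 1.42.0, other region filters, gene windows, a replicate block and leaving out each library. In a simulation that changed 200 regions by 2-fold, edgeR recovered 22.5% among 3236 regions for KO against WT at E12.5 and 68% among 2774 at E15.5. For the stages it recovered 61.5% among 2570 in WT and 38.5% among 3145 in KO. The members and lists were chosen with earlier results of these data known. Named genes are the 7 members, and genes of the 3 lists that were called or present in every library of 1 genotype and in none of the other; the results of 1 list gene are not reported here. Nos2, Nos3, Slc12a5, Necab2, Cabp7, Slc17a6, Slc17a7 and Slc6a4 fall outside this rule and were named after their values were seen. Shares called by DESeq2 are of regions with an adjusted p. Promoters are from the RefSeq table, whose assembly is GRCm38.p6. Python 3.11.15, numpy 2.4.6, pandas 2.3.3 and matplotlib 3.10.9 were used.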

Additional observations from a re-analysis of the deposited data

How the results depend on the processing

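The falls at Gad1 and Gad2 from E12.5 to E15.5 in WT passed under every alternative run, and 3 genes were called there with each library left out in turn; TMM factors and DESeq2 called 2, leaving out Slc32a1 (-0.37 and -0.29). In KO, leaving out a library gave 0 to 3 calls, and gene windows and the replicate block 1 each (Gad1). For KO against WT, TMM factors called 1 gene and DESeq2 3 at E12.5, and 3 each over both stages; the cause was not tested. Signs turned at E12.5 for Calb2 with TMM factors (0.19) and DESeq2 (0.27), and for Pvalb with DESeq2 (0.0012). Without single libraries, values at E12.5 ran from -0.080 to 0.24 at Gad1, -0.083 to 0.35 at Gad2 and -0.12 to 0.24 at Slc32a1, and at E15.5 from -0.26 to 0.071 at Pvalb. For the difference between stages, DESeq2 gave -0.38 at Gad1, -0.45 at Gad2, -0.29 at Slc32a1 and -0.11 at Pvalb, TMM factors -0.32, -0.38, -0.23 and -0.030, and leaving out single libraries -0.055 to 0.38 at Gad2. Pvalb between stages turned with DESeq2 in WT (0.014) and KO (0.0062), and ran from -0.24 to 0.12 in KO without single libraries. Under score filters, Calb2 had an interval in 3 libraries in the better-scoring part of each list and in 4 with equal numbers of intervals, and Calb1 in 0. A mean count of at least 50 left Calb2 untested.

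Same-numbered libraries did not deviate together in every pair (correlations 0.226, 0.0327 and 0.115 between the genotypes at E12.5, and -0.246, -0.083 and -0.141 at E15.5; between the stages 0.254, 0.0327 and 0.128 in WT and 0.120, 0.0879 and 0.102 in KO). Between the KO stages every library correlated best with its own number, and in the other 3 comparisons not every library did. The KO correlations were small, 0.0879 to 0.120, and whether they exceed chance was not tested. The design gives no such pairing. With the replicate block, Gad2 in KO between stages was -1.0 (edgeR adjusted p = 0.0634). Calb2, Calb1 and Nos1 had 9 to 67 counts per interval, so their counting error is large; whether depth bears on their missing intervals was not tested.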
